A study of Arabidopsis thaliana with 6 samples.

Results

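The transcripts described here are those that were bright in wild-type floral buds of Arabidopsis thaliana and at least 4 times dimmer on every array of 2 atyak1 mutants. A probe set was a member when its MAS5 signal was at least 300 on both wild-type arrays and its highest signal on the 4 mutant arrays was at most the lower wild-type signal divided by 4. Of 22746 probe sets, leaving out the array's own controls, 134 met this, and 15 named by symbol were set aside, which left 119 members. The members were chosen by their signals on the mutant and wild-type arrays, so their lower level in the mutants is a description, with no test.

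The RNA was total RNA of floral buds of mixed age, none older than stage 13, taken from the main inflorescence of Col-0 plants aged 42 days. The groups were atyak1-1, atyak1-2 and the wild type, with 2 biological replicates of each on Affymetrix ATH1 arrays. The mutants carry different alleles of the gene for AtYAK1, which belongs to the DYRK kinases. All 3 groups share the Col-0 background, and the lesion of each allele and the number of plants per replicate are not given in the sources used here. No value for AtYAK1's own transcript is given here. Values are linear MAS5 signals, a summary of each probe set's brightness, and 6 arrays limit the precision of every comparison.

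Floral buds of this age hold anthers in which pollen matures. Late in its development a pollen grain stores transcripts for the pollen tube, many of which encode enzymes that remodel the cell wall, transporters and signalling proteins. Pectin is the main polymer of the tube's growing tip: pectinesterases strip methyl groups from it, their inhibitors hold them back, and polygalacturonases and pectate lyases cut the stripped chains.

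The array's annotation gave 1 gene for 68 of the 119 members, several for 2 and none for 49. Of the 68, 61 carry only a locus code, and 7 have a symbol. From general knowledge of these loci, 44 of the 68 could be put into groups of related function, after the members were known. The largest theme among them by number was pectin, with 12 genes of pectin enzymes. Another 3 belong to the family of invertase and pectinesterase inhibitors, and which enzymes these 3 act on is not given here. No share of such genes over the whole array was available, so nothing is said of enrichment. An _s_at suffix, borne by 3 members, marks a probe set that can read several related genes.

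On the mutant arrays the median member signal was 47.4 and 14.5 in atyak1-1 replicates 1 and 2 and 52.8 and 29.1 in atyak1-2 replicates 1 and 2, against 855 and 694 in wild-type replicates 1 and 2. Among all probe sets of an array, the median member stood at the 27.1st and 15.5th percentile in atyak1-1 and the 28.2nd and 22.4th in atyak1-2, against the 81.9th and 78.2nd in the wild type. Together the members made up 0.125% and 0.0410% of the summed signal in atyak1-1 and 0.0947% and 0.0582% in atyak1-2, against 1.14% and 1.06% in the wild type. The median signal of all probe sets was between 213 and 223 on every array. In whole buds, fewer cells of a type and less RNA per cell cannot be told apart.

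**Figure D1:**
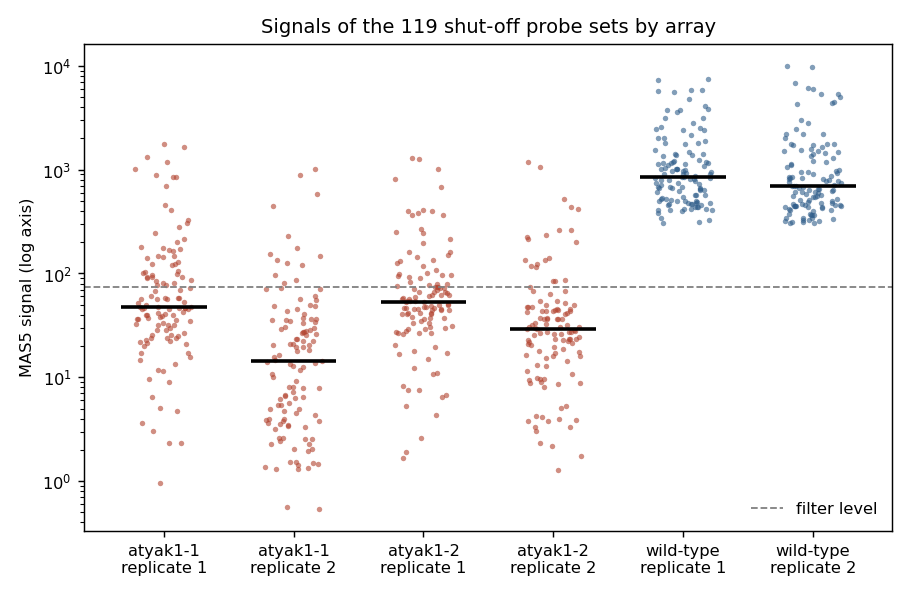
MAS5 signals of the 119 members on a log axis, 1 point per member, for each mutant and wild-type array; black bars are medians and the dashed line is the signal of 73.6 used as a filter level. The mutant medians lie between 14.5 and 52.8, under the line, and the wild-type medians at 855 and 694.

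The level left in the mutants, as the geometric mean of 4 mutant arrays over that of 2 wild-type arrays, had a median of 3.95% and ran from 0.431% to 19.8%. In other terms the median member was 25.3-fold lower, 73 members were over 20-fold lower and 9 over 100-fold lower. These sizes rest on dim signals. For 67 members all 4 mutant arrays lay under a signal of 73.6, the geometric mean below which probe sets were left out of tests, and for 38 some did. With log2(signal + 32) the median log2 change was -3.53, against -4.66 with log2(signal). The order of MAS5 signals this low is uncertain, so the folds over 100 have no exact size.

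Among the genes with the highest wild-type signals, AT3G07820, of the polygalacturonase family, had signals of 1662 and 70.5 in atyak1-1 and 808 and 216 in atyak1-2, against 7469 and 9939 in the wild type. AT3G28750, to which no function is given here, had 1781 and 230.0 in atyak1-1 and 1285 and 434 in atyak1-2, against 7253 and 9683 in the wild type. AT5G19580, of the glyoxal oxidase family, which makes hydrogen peroxide from aldehydes, had 1313 and 119 in atyak1-1 and 688 and 263 in atyak1-2, against 5805 and 5999 in the wild type. For these 3 genes both alleles were brighter on the replicate 1 array than on the replicate 2 array, and 4.39%, 8.25% and 6.96% of the wild-type level was left. AT5G61720, of a plant protein family of unknown function, and AT3G01240 had 7.59% and 7.35% left. AT3G01240 ran from 126 to 851 on the mutant arrays, against 3779 and 4458 in the wild type.

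The 6 pectinesterase genes had a median of 2.37% left, and the median over all 119 members was 3.95%. AT5G07430 had signals of 405 and 7.82 in atyak1-1 and 197 and 85.2 in atyak1-2, against 3825 and 4263 in the wild type. Its direct neighbour on chromosome 5, AT5G07420, also a pectinesterase gene, had 46.8 and 19.4 in atyak1-1 and 58.3 and 37.1 in atyak1-2, against 1165 and 1756 in the wild type. In the wild type replicate 2 was the brighter array for both neighbours, as for 35 of the 119 members. AT3G17060 kept the least of the 6, 0.696%, with mutant signals between 2.53 and 17.6 and wild-type signals of 1399 and 1119. AT3G05610 had 1.75% left, AT2G26450 7.50% and AT3G06830 9.66%. AT3G06830 was the dimmest of them in the wild type, at 329 and 340.

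Pectate lyases and polygalacturonases cut pectin chains. AT59, a pectate lyase gene known from pollen, had 2.34 and 1.48 in atyak1-1 and 6.78 and 21.9 in atyak1-2, against 866 and 630.1 in the wild type, with 0.644% left. All 4 mutant signals of AT59 were near the bottom of the scale. The pectate lyase genes AT5G15110 and AT2G02720 had 2.44% and 2.38% left. AT5G48140, of the polygalacturonase family, had 57.7 and 14.5 in atyak1-1 and 99.9 and 30.8 in atyak1-2, against 2004 and 1508 in the wild type, and AT2G23900 of the same family kept 8.15%. The family of invertase and pectinesterase inhibitors gave AT4G02250, at 92.6 and 12.6 in atyak1-1 and 97.7 and 43.7 in atyak1-2, against 2785 and 2826 in the wild type. APPB1 and AT1G23350 of that family had 2.86% and 2.60% left. Of the 15 genes of pectin enzyme and inhibitor families 14 were dimmest on atyak1-1 replicate 2, and AT2G02720 was dimmest on atyak1-2 replicate 2. Over all 119 members, 91 were dimmest on atyak1-1 replicate 2. For 8 of these 15 genes all 4 mutant arrays lay under 73.6, where the order of signals is uncertain, so the count of 14 is a description.

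**Figure D2:**
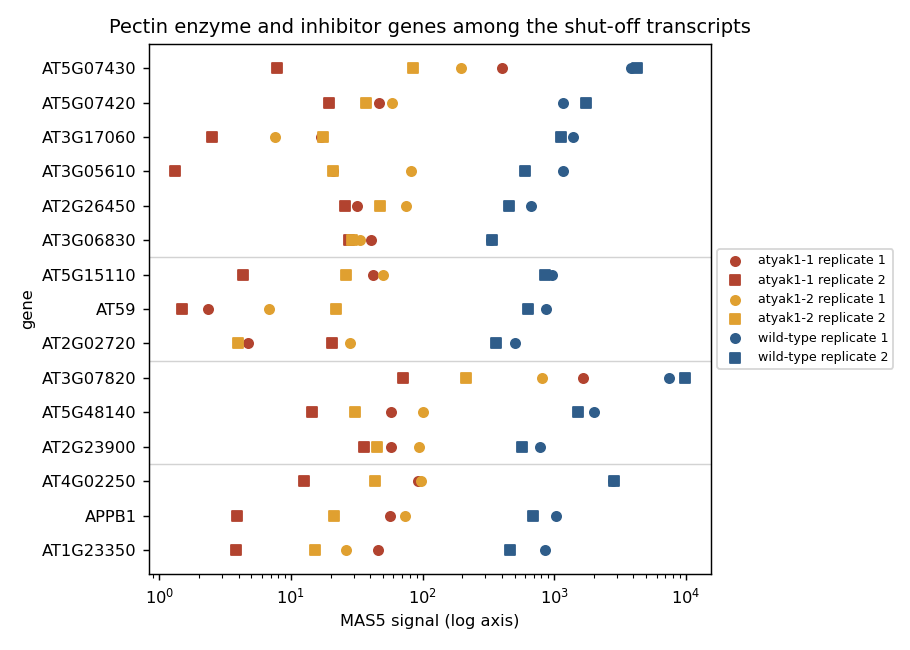
MAS5 signal on a log axis for 15 members of pectin enzyme and inhibitor families, 1 row per gene, with grey lines between pectinesterases, pectate lyases, polygalacturonase family and inhibitor family; colours are genotypes, circles replicate 1 and squares replicate 2. Every mutant point lies left of both wild-type points, as the rule requires, and AT3G07820 has the brightest mutant signals, between 70.5 and 1662.

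Other glycosyl hydrolases were GH9B11, of the endoglucanase family, with 0.752% left, AT3G62710 of family 3 with 2.59% and AT5G64790 of family 17 with 9.76%. GH9B11 had signals of 5.11 and 2.02 in atyak1-1 and 4.31 and 3.79 in atyak1-2, against 523 and 440 in the wild type. Its 4 mutant arrays were dim alike, within a signal of 4 of each other.

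Signalling genes numbered 7, with a median of 6.58% left. The peptide gene RALFL26, of the family of rapid alkalinization factors that bind receptor kinases, had 11.7 and 1.32 in atyak1-1 and 54.0 and 44.7 in atyak1-2, against 1804 and 868 in the wild type. AT4G03290, an EF-hand calcium-binding protein gene, had 2.33 and 1.42 in atyak1-1 and 19.6 and 10.7 in atyak1-2, against 481 and 364 in the wild type. In both genes the atyak1-2 arrays were the brighter, at signals too dim to order. The kinase genes AT3G20530 and AT5G12000 had 1.72% and 8.75% left, and AT1G04540 and AT2G13350, whose proteins carry a C2 domain that binds membranes, had 6.58% and 9.69%. SGP2, a gene of a small GTP-binding protein, kept 15.6%, with 178 and 95.6 in atyak1-1 and 97.9 and 134 in atyak1-2, against 737 and 828 in the wild type.

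Genes of membrane traffic and transport numbered 6. AT1G71680, of the amino acid transporter family, had 199 and 2.30 in atyak1-1 and 48.0 and 3.31 in atyak1-2, against 1013 and 1714 in the wild type. Both alleles were thus above a signal of 40 on the replicate 1 arrays and under 4 on the replicate 2 arrays. AT1G03050, AT1G25240 and AT1G68110, which belong to the ENTH and ANTH adaptor proteins of clathrin-coated vesicles, had 1.43%, 3.69% and 4.49% left. AT5G49130 of the MATE transporter family had 6.64% and AT3G54800, a lipid-binding protein gene, 3.96%.

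Genes of secreted proteins and enzymes numbered 11, with a median of 4.70% left. AT1G54020, a lipase gene of the GDSL family, kept the most of them, 17.2%, at 326 and 584 in atyak1-1 and 412 and 413 in atyak1-2, against 2467 and 2466 in the wild type. The germin-like cupin gene AT5G26700 had 92.8 and 14.6 in atyak1-1 and 135 and 43.3 in atyak1-2, against 2388 and 1785 in the wild type. The peroxidase gene AT5G47000, the defensin-like gene LCR72 and the terpene synthase gene AT3G25810 had 3.08%, 2.07% and 1.42% left, and the glucosyltransferase gene UGT85A3 had 11.8%. AT5G42170 of the GDSL family, AT1G11770 of the berberine bridge enzyme family, AT4G25780 of the CAP family and AT1G75300, which is like isoflavone reductases, had 3.33%, 4.70%, 6.23% and 9.84%. The transcription factor gene AT1G35490, of the bZIP family, had 81.5 and 4.94 in atyak1-1 and 27.5 and 9.05 in atyak1-2, against 730 and 703 in the wild type, and the F-box gene AT2G26850 had 8.45% left.

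Of the 10 named genes with the least left, those not yet given are AT3G26860 with 0.625%, AT5G54095 with 0.804%, AT4G18395 with 1.15% and AT1G54070 with 1.29%. Their mutant signals were all under 28 and their wild-type signals between 438 and 1191. The 24 named members in no group had a median of 4.19% left, between 0.625% and 14.3%, and the 51 members without a single listed gene had 4.19%, between 0.431% and 19.8%. The 44 grouped members had a median of 2.97%. Over all members, the probe set 254685_at, with no gene listed, kept the least, 0.431%, with mutant signals between 1.33 and 14.7 and wild-type signals of 932 and 746. It was named after its value was seen.

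The members differed in how even they were among the mutant arrays. In 14 members all 4 mutant arrays lay at or over 73.6, so their levels there can be compared. The brightest over the dimmest mutant array was a ratio of 1.25 to 2.08 for 9 of them and 5.66 to 11.0 for the other 5. The probe set 249732_at, with no gene listed, had 1173 and 1006 in atyak1-1 and 1261 and 1196 in atyak1-2, against 5561 and 6113 in the wild type. Likewise 259574_at had 454 and 443 in atyak1-1 and 403 and 526 in atyak1-2, against 5801 and 5379 in the wild type. These 2 probe sets, named after their values were seen, thus had similar levels on all mutant arrays. The uneven ones were AT5G19580, AT3G28750, AT3G01240, AT5G61720 and the probe set 245658_at, each brightest on atyak1-1 replicate 1 and dimmest on atyak1-1 replicate 2.

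The difference between the alleles was not used by the rule, and limma's moderated test, fitted to all 15164 probe sets past a filter on dim signals, was run on it. Of the 119 members 70 passed the filter and were tested, and the other 49 were too dim on average. The filter reads all 6 arrays, so wild-type signal carried dim members past it: of the 70, 24 had all 4 mutant arrays under 73.6, 32 had some under it and 14 had none. Differences between mutant arrays are therefore measured above that level only in the 14, and counts over the 70 are descriptions. In atyak1-2 against atyak1-1, 0 of the 70 passed an adjusted p of 0.05 in either direction, as did 0% of all probe sets tested. An unadjusted p under 0.05 was held by 7 of the 70, or 10%, against 0.996% of all probe sets tested. That fit does not pair the arrays of the same replicate number. With the replicate number as a block, an unadjusted limma p under 0.05 was held by 17 of the 70 and by 403 of all 15164. The median log2 difference of atyak1-2 minus atyak1-1 was 0.31 over the tested members and 0.00 over all probe sets. Both atyak1-2 arrays lay above both atyak1-1 arrays for 9 of the 70 members, where 10.5% of all probe sets tested did, and below them for 2, where 10.3% did. Among the 14 with no dim mutant array they lay above for 3 and below for 0. The median log2 difference over the 70 was 0.97 without atyak1-1 replicate 1 and -0.51 without atyak1-1 replicate 2. It was -0.03 without atyak1-2 replicate 1 and 0.71 without atyak1-2 replicate 2.

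The largest differences among named members were read from dim signals. RALFL26 and AT3G26860 had log2 differences of 3.65 and 3.43, atyak1-2 minus atyak1-1, and were below the filter. AT5G39880 had 89.9 and 47.3 in atyak1-2, against 60.9 and 0.557 in atyak1-1 (3.49 ± 1.88, SE, n = 2 arrays each, limma adjusted p = 1.00), and the difference was 0.10 without atyak1-1 replicate 2. It was 6.87 without atyak1-1 replicate 1 (adjusted p = 0.030), where the remaining atyak1-1 array is the dim one. In the other direction AT2G13350 had 40.9 and 32.1 in atyak1-2, against 91.7 and 71.2 in atyak1-1, and the alleles did not overlap (-1.16 ± 0.26, SE, n = 2 arrays each, limma adjusted p = 1.00). AT5G27980 and AT1G19500 had -1.17 and -1.04 and were below the filter.

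The replicate numbers were a second label that the rule did not read. Of the 119 members 91 were dimmest on atyak1-1 replicate 2 and 18 on atyak1-2 replicate 2, and 53 were brightest on atyak1-1 replicate 1 and as many on atyak1-2 replicate 1. Of the 70 tested members 56 were dimmest on atyak1-1 replicate 2, where 25.3% of all probe sets tested were, and of the 14 with no dim mutant array 11 were. Within replicate 2 the median log2 change, mutant mean minus wild type, was -5.47, and within replicate 1 it was -4.02. The change within replicate 2 was the larger fall for 99 members and the smaller for 20. The change within replicate 2 lay below that within replicate 1 for 57 of the 70 tested members, where 48.6% of all probe sets tested did so, and for 10 of the 14. Both replicate 2 mutant arrays lay below both replicate 1 mutant arrays for 52 of the 70 tested members, where 27.6% of all probe sets tested did, and above them for 1, where 28.4% did. In the 14 with no dim mutant array the counts were 8 below and 1 above. For the other 56 the order includes signals under 73.6, so the count of 52 is a description. Among them, the 24 with all 4 mutant arrays under 73.6 had 16 below and 0 above.

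**Figure D3:**
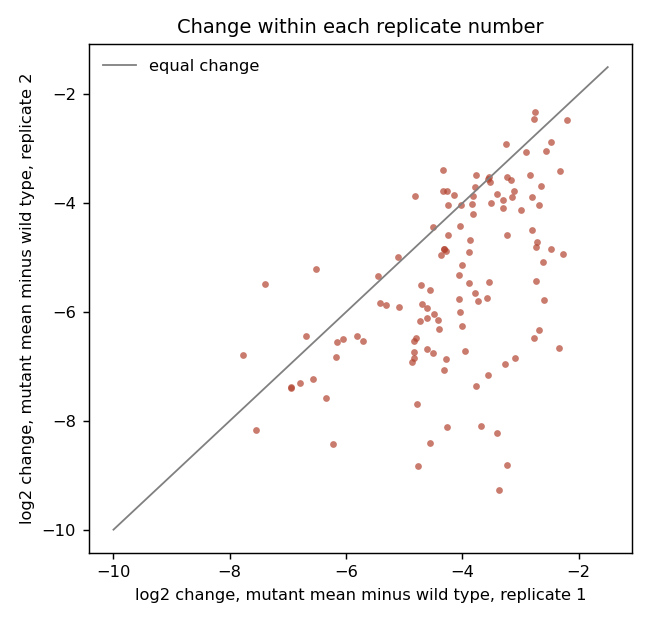
Log2 change, mutant mean minus wild type, within replicate 1 (x) and within replicate 2 (y), 1 point per member, with a line of equal change. Of the 119 members 99 lie below the line, with a larger fall within replicate 2, and the medians are -4.02 (x) and -5.47 (y).

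In limma's fit of genotype and replicate number, 6 of the 70 tested members were lower in replicate 2 than in replicate 1 and 0 were higher, where 2.68% of all probe sets tested were called lower and 1.04% higher. All 6 had at least 1 mutant array under 73.6, and 0 of the 14 with no dim mutant array passed. The sizes below are thus read in part from signals of uncertain order. AT3G26110 had 3.30 and 9.83 in the replicate 2 arrays of atyak1-1 and atyak1-2, against 121 and 151 in their replicate 1 arrays, and in the wild type 1577 in replicate 2, against 2591 in replicate 1. It was lower in replicate 2 in 3 of 3 groups (log2 difference -3.28 ± 0.69, SE, limma adjusted p = 0.041), and it missed the threshold with no filter (adjusted p = 0.0568), with no variance trend (0.121) and without either atyak1-2 array (0.219 and 0.225). With log2(signal + 32) its difference was -1.65. The fit takes 1 difference for all 3 groups, but for AT3G26110 it was -4.57 in the mutants and -0.72 in the wild type. The polygalacturonase family gene AT5G48140 was also lower in 3 of 3 groups, with -1.85 in the mutants and -0.41 in the wild type (fitted difference -1.37 ± 0.30, SE, limma adjusted p = 0.046). It missed the threshold with no filter (adjusted p = 0.0719), with no variance trend (0.103) and without any 1 of the 4 mutant arrays (0.0725 to 0.261), and its difference was -0.81 with log2(signal + 32). The other 4 called were the probe sets 257532_at, 265022_at, 245700_at and 264923_s_at, none with a gene listed, and they were named after their values were seen. The count of 6 was 4 with no filter, where 329 of 22746 probe sets were called lower. It was 1 with no variance trend, where 148 of 15164 were. The median log2 difference over the 70 was -0.89. It was -0.49 without either atyak1-1 array, -0.94 without either atyak1-2 array and -1.21 without either wild-type array. With an array of 1 group left out, the difference is read from the other 2 groups alone.

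Of the 3 named members with the largest fall in mutant replicate 2, AT1G71680 and AT3G26110 are given above, and AT3G01250 had 1.45 and 24.3 in the replicate 2 arrays of atyak1-1 and atyak1-2, against 170 and 52.7 in their replicate 1 arrays. AT3G01250 is the direct neighbour of AT3G01240 on chromosome 3. Both were brighter in wild-type replicate 2, and both were dimmest on atyak1-1 replicate 2. In the other direction AT4G18395, AT3G20530 and AT59 had log2 differences of 2.00, 0.88 and 0.52 between the mutant arrays of replicate 2 and replicate 1, all at signals under 22.

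Whether the change itself differed between the replicate numbers was tested as the change within replicate 2 minus that within replicate 1. Its median was -1.04 over the 70 tested members and 0.01 over all probe sets tested. In limma 0 of the 70 passed in either direction, with 0.00659% of all probe sets called lower and 0.00659% called higher. An unadjusted p under 0.05 was held by 19 of the 70, or 27.1%, against 9.54% of all probe sets tested. Of the 70, 24 had all 4 mutant arrays under 73.6 and 32 had some under it. The members also share their 6 arrays, so the share of 27.1% is a description. AT3G07820 had -3.64 ± 0.90 (SE, limma adjusted p = 0.37). With each mutant array left out, the median over the 70 ran from -1.19 to -0.63. Over all probe sets tested it ran from 0.003 to 0.016. The fit has 2 residual degrees of freedom, both from the mutants, and assumes that the lone wild-type arrays vary like them.

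The 2 wild-type arrays also differed more for the members than for other bright probe sets. The brighter over the dimmer wild-type array had a median ratio of 1.29 over the 119 members, against 1.115 over the 9160 other probe sets with at least 300 on both, and the ratio was over 1.5 for 21.8% of members, against 4.86% of the others. Replicate 1 was the brighter for 84 members, or 70.6%, against 51.2% of the others. The rule reads the lower wild-type array, not their ratio, and no test was made of 1 array against 1.

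The members brighter in wild-type replicate 2 numbered 35, and they include AT3G07820, AT3G28750, AT5G07420, AT5G07430 and AT1G71680. In these 35 a median of 1.98% was left within replicate 2 and 11.2% within replicate 1, and in the other 84 it was 2.31% and 5.04%. The wild-type array of the same number is the base of each percentage, so part of this contrast follows from the split. Among the replicate 1 arrays, atyak1-2 was below atyak1-1 for 25 of the 35 and for 31 of the 84. The 35 were also the brighter in the wild type, with a median of 1232 against 700. Of the 119 members 74 lay under 73.6 in atyak1-1 replicate 1 and 80 in atyak1-2 replicate 1, where the order of signals is uncertain. Across the 119 members, the log2 ratio of wild-type replicate 2 over replicate 1 had a Pearson correlation of -0.40 (Spearman -0.46) with the log2 ratio of atyak1-2 over atyak1-1 in replicate 1. With the same ratio of the alleles in replicate 2 the Pearson correlation was 0.02 (Spearman 0.01). The members share their 6 arrays, so these values are descriptions and carry no p. No such count or correlation over all probe sets is given here, so nothing is said of the members in particular.

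**Figure D4:**
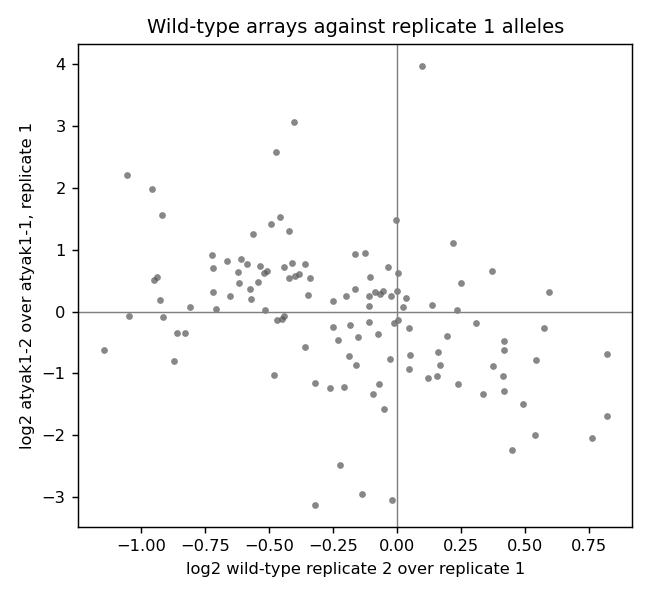
Log2 ratio of wild-type replicate 2 over replicate 1 (x) against the log2 ratio of atyak1-2 over atyak1-1 among the replicate 1 arrays (y), 1 point per member, with grey lines at no difference. The points fall toward the lower right, with a Pearson correlation of -0.40 over 119 members.

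Close to the limit, AT3G28750, SGP2 and AT5G12000 were just inside, where the lower wild-type signal was 4.07, 4.13 and 4.18 times the highest mutant signal. Just outside were AT3G28780, AT2G47050 and AT4G00350, at 3.91, 3.88 and 3.84 times. AT3G28780 had 665 and 37.0 in atyak1-1 and 241 and 59.4 in atyak1-2, against 2603 and 3426 in the wild type, so 1 mutant array kept it out. The 68 named members lay on all 5 chromosomes, with 18, 9, 18, 6 and 17 on chromosomes 1 to 5. On chromosome 4 that is 8.82%, where 14.6% of the array's named probe sets lie, and on chromosome 3 it is 26.5%, where 20.4% lie. Direct neighbours were 2 pairs, AT5G07420 with AT5G07430 and AT3G01240 with AT3G01250.

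Genes of cell types in the bud that did not meet the rule were read from lists drawn up from general knowledge, of which few genes had a named probe set. Of the 61 genes of late pollen and pollen tubes, 18 had a named probe set, 3 met the rule and were among the 15 set aside, and 6 of the other 15 were tested in the mean of both mutants against the wild type. In limma 3 of these 6 were lower and 0 higher, where 1.64% of all probe sets tested were called lower and 0.284% higher. With the replicate number as a block 4 of the 6 were lower, and 4.79% of all probe sets tested were called lower and 2.80% higher. PLIM2b, an actin-bundling LIM protein gene of pollen, had 354 and 181 in atyak1-1 and 213 and 173 in atyak1-2, against 735 and 760 in the wild type, and the groups did not overlap (log2 change -1.76 ± 0.27, SE, n = 4 against 2 arrays, limma adjusted p = 0.030). ACT12 (limma adjusted p = 0.015) and AGL104 (0.0497) were the other 2 called, and AGL104 missed the threshold with no filter (0.0555) and without atyak1-1 replicate 2 (0.0596). AGL66 did not pass (adjusted p = 0.094), and passed with the replicate block (0.023) and without atyak1-1 replicate 1 (0.0389). The 6 had a median log2 change of -1.57, against 0.09 over all probe sets tested. Of the 6, AGL66 had all 4 mutant arrays under 73.6 and passed the filter through its wild-type signal. AGL104 and AGL30 had some mutant arrays under 73.6, and PLIM2b, ACT12 and AGL65 had none. The counts and the median over the 6 are therefore descriptions. Without any 1 of wild-type replicate 1, wild-type replicate 2, atyak1-2 replicate 1 or atyak1-2 replicate 2, 0 of the 6 passed.

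With no filter the means of all 15 pollen genes were lower in atyak1 buds, the median was -1.82, and 4 passed in limma. In that fit 383 of all 22746 probe sets were called lower and 62 higher. The sperm histone gene MGH3, the 1 germline gene with a named probe set, had -2.39 (limma adjusted p = 0.038) and was below the filter. AT3G19020, listed as LRX8, a leucine-rich repeat extensin of the pollen tube wall, had 5.20 and 3.08 in atyak1-1 and 1.72 and 6.44 in atyak1-2, against 228 and 111 in the wild type (limma adjusted p = 0.018, n = 4 against 2 arrays). Its fitted log2 change of -5.45 has no exact size, since all 4 mutant signals lay far under 73.6. The wild-type signals of AT3G19020 were under 300, which kept it out of the members. Other bud tissues were read from 4 tested genes of the tapetum and its pollen wall products, 1 meiotic gene and 1 carpel gene, and 0 passed. All had higher means in the mutants, but the 4 tapetum genes had lower ones without wild-type replicate 1. The carpel gene SPT, the only gene of 13 floral organ genes with a named probe set, had 394 and 362 in atyak1-1 and 380.2 and 393 in atyak1-2, against 285 and 370.2 in the wild type. AMS, which encodes a tapetal transcription factor, had 700.2 and 1227 in atyak1-1 and 715 and 995 in atyak1-2, against 586 and 912 in the wild type. Transcripts of both bud tissues were thus measured on all 6 arrays, and of 5 genes of green tissue and epidermis 0 had a named probe set.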

How the data were processed

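The authors deposited MAS5 signals, a linear intensity, for 22810 probe sets on 6 arrays. GCOS and MAS5 are named without version, per the submitters' processing notes, and the order of steps is not stated there. Trimmed of 2% at each end, each array averaged 500.04, so 1 scaling target was shared. Leaving out 64 control probe sets, signals were taken to log2 with no pseudocount. The third of probe sets with the lowest mean was left out of tests, which kept 15164 with a geometric mean of at least 73.6. Models were fitted in R 4.3.3 by limma 3.58.1 with 1 mean for each genotype, a variance trend, Benjamini-Hochberg adjustment and a threshold of 0.05. For the replicate numbers the model held genotype and number, or 4 means. The fits were also run on simulated data with independent noise, equal on all 6 arrays. That run holds no pairing of the replicate numbers and no dim mutant arrays, so it says nothing of either.

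Groups and replicate numbers come from the sample titles, where each replicate is called biological. Whether they came from separate plants is not stated, so p-values measure only the spread between these samples. Members, lists and tests were chosen with earlier results of these data known. Named were the members with the 10 highest wild-type signals, the 10 lowest levels left and the 3 largest differences each way between alleles and between replicate numbers, those nearest the limit, neighbours, and members of role groups. The platform's table gave 1 gene for 13513 probe sets, several for 503 and none for 8730, and 13436 of the first matched a current record. One list gene, whose locus carries another symbol, was left out. Deviations from the group means correlated between same-numbered arrays at 0.25, 0.35 and 0.61, so the numbers pair the arrays. The main fits of alleles and of mutant against wild type do not pair arrays by number, and the replicate block is an alternative. Alternatives were no filter, a stricter filter, log2(signal + 32), quantile normalization, no variance trend, the replicate number as a block, and each array left out. Figures used matplotlib 3.10.9 and Python 3.11.15.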

Additional observations from a re-analysis of the deposited data

How the results depend on the processing

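Of 59 alternatives tried for the counts and medians, 43 left them within 1.5 times or within the spread between replicates. The number of members was 120 after quantile normalization, 157 and 100 with a limit of 3-fold and 5-fold, and 145 and 77 with a wild-type floor of 200 and 500. The median log2 change was -3.53 with log2(signal + 32) and ran from -5.49 to -4.14 with each array left out. Between the alleles 0 to 2 members passed with each array left out, and 0 with the replicate block. Between the replicate numbers 3 passed under the stricter filter, 1 without the variance trend and 0 to 36 with each array left out. For the difference in change between the replicate numbers it was 0 to 16, and no value could be had without a wild-type array. Of the list genes 3 passed, against 5 without the filter, 1 under the stricter filter and 4 with the replicate block, and 0 to 4 with each array left out. Of 190 alternatives for single genes, 24 ended a call, 5 made one and 9 changed sign, none of the last in a call. AGL65 had -0.06 and was at 0.017 after quantile normalization. With each array left out, it ran from -0.31 to 0.18, AMS from -0.044 to 0.59, AT5G07230 from -0.36 to 0.65, SHT from -0.36 to 0.81 and SWEET8 from -0.14 to 0.92. The cause of these moves was not tested. Signal near background limits every fold of a member whose mutant arrays lie under 73.6.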
